A study of Mus musculus with 6 samples.

Results

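The chaperones of the endoplasmic reticulum (ER) and the genes of the unfolded protein response were examined in cultured mouse satellite cells (SCs). These stem cells of skeletal muscle came from mice with or without a conditional deletion of the NF-YA gene. The group is a list of 34 genes given by name, with no threshold on a measured value but chosen when earlier results of these data were known, out of 35976 genes in the RNA-seq tables, and all 34 were among the 17348 genes that passed the filter on low counts. SCs were taken from NF-YA cKO mice, in which tamoxifen activates a Cre recombinase driven by the Pax7 gene so that cells lose a floxed stretch of Nfya, the gene of NF-YA, and from NF-YA fl/fl mice, which have the same floxed alleles, no Cre, and the same tamoxifen. The labels give an age of 5 to 7 weeks for both genotypes, while the study's methods give a somewhat older range. The cells were enriched by removing other cell types with magnetic beads and were grown in growth medium, and each genotype has 3 libraries. Only cells that express Pax7 at the time of tamoxifen lose the gene, so a culture may hold cells that kept it.

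Proteins that enter the ER are folded by Hsp70 and Hsp90 chaperones, by lectin chaperones that bind their sugar chains and by disulfide isomerases, and those that fail to fold are returned to the cytosol and degraded. When unfolded proteins accumulate, the membrane sensors Ern1 (IRE1), Eif2ak3 (PERK) and Atf6 start the unfolded protein response, through splicing of the Xbp1 mRNA, translation of Atf4 and cleavage of Atf6 itself. NF-Y, the trimer of which NF-YA is the DNA-binding regulatory subunit, binds the CCAAT box, and the ER stress response element of chaperone promoters joins a CCAAT box to a CCACG sequence recognized by Atf6 and spliced Xbp1. Muscle cells make and secrete much extracellular matrix and remodel their ER during differentiation.

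The 3 NF-YA cKO libraries held 31040863 to 41118984 expected counts and the 3 NF-YA fl/fl libraries 26936230 to 33316730. The entry for the deleted Nfya allele received 22.3%, 26.4% and 34.2% of the Nfya counts in the NF-YA cKO libraries and 0 in the 3 NF-YA fl/fl libraries. The rest fell on the other Nfya entries, so that by these estimates the NF-YA cKO cultures still held undeleted Nfya RNA. Nfya as a whole was close between the genotypes, with a log2 fold change of -0.06 ± 0.18 (SE, edgeR FDR = 0.814). The libraries of the genotypes also differed in other ways. Xist was at 843 ± 8.35 CPM (normalized counts-per-million, mean ± SD, n = 3) in the NF-YA cKO libraries, against 0.389 ± 0.085 CPM in the NF-YA fl/fl ones, and the Y-linked Ddx3y at 0.0636 ± 0.028 and 84.9 ± 3.82 CPM, although the study's methods describe injections of male mice, so that sex and genotype cannot be told apart. All 20 terminal muscle markers were called lower in NF-YA cKO, with a summed level of 1017 to 1957 CPM against 52351 to 64800 CPM. Of 14 macrophage markers 13 were called higher, with a sum of 152 to 299 against 6.75 to 16.8 CPM, and none was at or under 3 counts in all libraries. With NF-YA cKO first, satellite cell and myoblast markers summed to 1704 to 1845 and 2371 to 3995 CPM. Of 8 tested, Pax7, Vcam1 and Sdc4 were higher and Cdh15, Itga7 and Des lower at an FDR under 0.05. Des, at 327 ± 41.2 and 1392 ± 158 CPM, is in this sum and also among the terminal muscle markers. Fibroblast markers summed to 2170 to 2580 and 1177 to 3246 CPM, with 2 of 11 higher and 0 lower at that FDR. Schwann cell markers summed to 87.9 to 99.6 and 123 to 216 CPM. Of these 7 of 9 were higher and 1 lower, Erbb3, at 9.11 ± 1.59 and 129 ± 24.1 CPM. Endothelial markers summed to 16.4 to 20.8 and 5.39 to 9.81 CPM (3 of 7 higher, 0 lower). Smooth muscle markers summed to 895 to 1039 and 1970 to 2377 CPM (of 7 tested 0 higher, 4 lower). Of all tested genes 19.7% were higher and 18.9% lower. The part of these differences in the results on the 34 genes was not tested. In such bulk samples a smaller number of cells of one type and less RNA in each cell cannot be told apart.

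The promoters are shown first, because the element of the unfolded protein response contains the binding site of NF-Y, whose subunit gene was targeted. The RefSeq promoter table (GRCm38.p6, 250 bases before to 50 bases after the start of transcription) held 30 of the 34 genes. The promoter of Hspa5, the gene of the ER Hsp70 chaperone BiP, has 4 CCAAT boxes, 3 in the direction of transcription and 1 in the opposite one. It is printed 5′ to 3′ on the plus strand (chr2:34771840-34772139) with the boxes in capitals:
Hspa5: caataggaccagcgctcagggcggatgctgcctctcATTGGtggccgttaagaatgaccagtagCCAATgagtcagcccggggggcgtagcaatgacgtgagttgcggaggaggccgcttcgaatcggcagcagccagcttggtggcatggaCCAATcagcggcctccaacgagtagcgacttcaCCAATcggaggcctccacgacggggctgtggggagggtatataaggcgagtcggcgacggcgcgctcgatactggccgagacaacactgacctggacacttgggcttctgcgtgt

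The box nearest to the start of Hspa5 belongs to an ER stress response element, searched as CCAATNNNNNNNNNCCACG on both strands. Of the 30 genes 9 (30.0%) have this element, against 37 of the 27025 genes of the table (0.137%). The element is one of chaperone promoters and the list holds such genes, so the contrast was not independent of the choice of genes. Every such element contains a CCAAT box. The 10 elements of the 9 genes are printed in the direction in which the CCAAT box comes first, with the element in capitals and 5 bases on each side, and the strand is that of the printed letters:
Hspa5 (chr2:34772020-34772048, plus strand): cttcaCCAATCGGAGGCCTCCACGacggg
Hsp90b1 (chr10:86705633-86705661, minus strand): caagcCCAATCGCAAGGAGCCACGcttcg
Hsp90b1 (chr10:86705528-86705556, plus strand): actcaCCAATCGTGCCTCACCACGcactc
Dnajc3 (chr14:118937822-118937850, plus strand): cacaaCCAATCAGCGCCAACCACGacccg
Calr (chr8:84847070-84847098, plus strand): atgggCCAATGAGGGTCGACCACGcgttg
Canx (chr11:50325795-50325823, minus strand): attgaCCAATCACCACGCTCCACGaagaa
Pdia6 (chr12:17266486-17266514, plus strand): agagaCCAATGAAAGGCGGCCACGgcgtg
Creld2 (chr15:88819515-88819543, minus strand): gtggaCCAATTGAGGCTCGCCACGagaag
Syvn1 (chr19:6046527-6046555, plus strand): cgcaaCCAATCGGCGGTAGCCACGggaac
Derl3 (chr10:75893237-75893265, minus strand): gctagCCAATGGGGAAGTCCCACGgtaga

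The second form of the element, ATTGGNCCACG, in which the CCAAT box is read on the other strand and lies next to CCACG, was found in 2 of the 30 genes, Herpud1 and Dnajb11, and in 12 of all 27025 genes (0.0444%). In Dnajb11 it lies just downstream of the start, so that 1 gene, Herpud1, has it within the 250 upstream bases:
Herpud1 (chr8:94386372-94386392, plus strand): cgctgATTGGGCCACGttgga
Dnajb11 (chr16:22857847-22857867, plus strand): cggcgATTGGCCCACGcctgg

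Taken alone, a CCAAT box on either strand was found in 25 of the 30 genes (83.3%), against 41.1% of all genes, and 2 or more boxes in 19 (63.3%), against 13.3%. Hsp90b1 and Eif2ak3 have 6 boxes each. No CCAAT was found in the windows of Xbp1, Ern1, Trib3, Ppp1r15a and Asns. The unfolded protein response element TGACGTGG was found in none of the 30 genes and in 193 of all genes (0.714%). TGATGNAA, the composite site of Atf4 and C/EBP factors, was found in 5 genes (16.7%; Herpud1, Atf3, Trib3, Chac1 and Asns), against 4.51% of all genes. These are matches of letters within a window, not measured binding.

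None of the 34 genes was called by the thresholds of the study's methods (edgeR, FDR under 0.01 with a log2 fold change above 1 or below -1), while 12.3% of all tested genes were. At an FDR under 0.05 without a minimum fold 7 genes changed, which is 20.6% of the group, against 38.6% of all tested genes. Atf4, Pdia6, Creld2 and Manf were higher in NF-YA cKO (19.7% of all tested genes were higher), and Atf6, Syvn1 and Sel1l were lower (18.9% of all tested genes were lower). The log2 fold changes of the 34 genes went from -0.79 for Atf6 to 0.80 for Atf4, with a median of 0.15, against -0.02 over all tested genes. The estimate was above 0 for 24 genes and below 0 for 10, and 49.0% of all tested genes were above 0. At an unadjusted p under 0.05 there were 12 genes, against 8449 of all 17348. For 27 of the 34 genes the 95% interval of the log2 fold change lay between -1 and 1, so that a change of 2-fold was outside it.

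**Figure D1:**
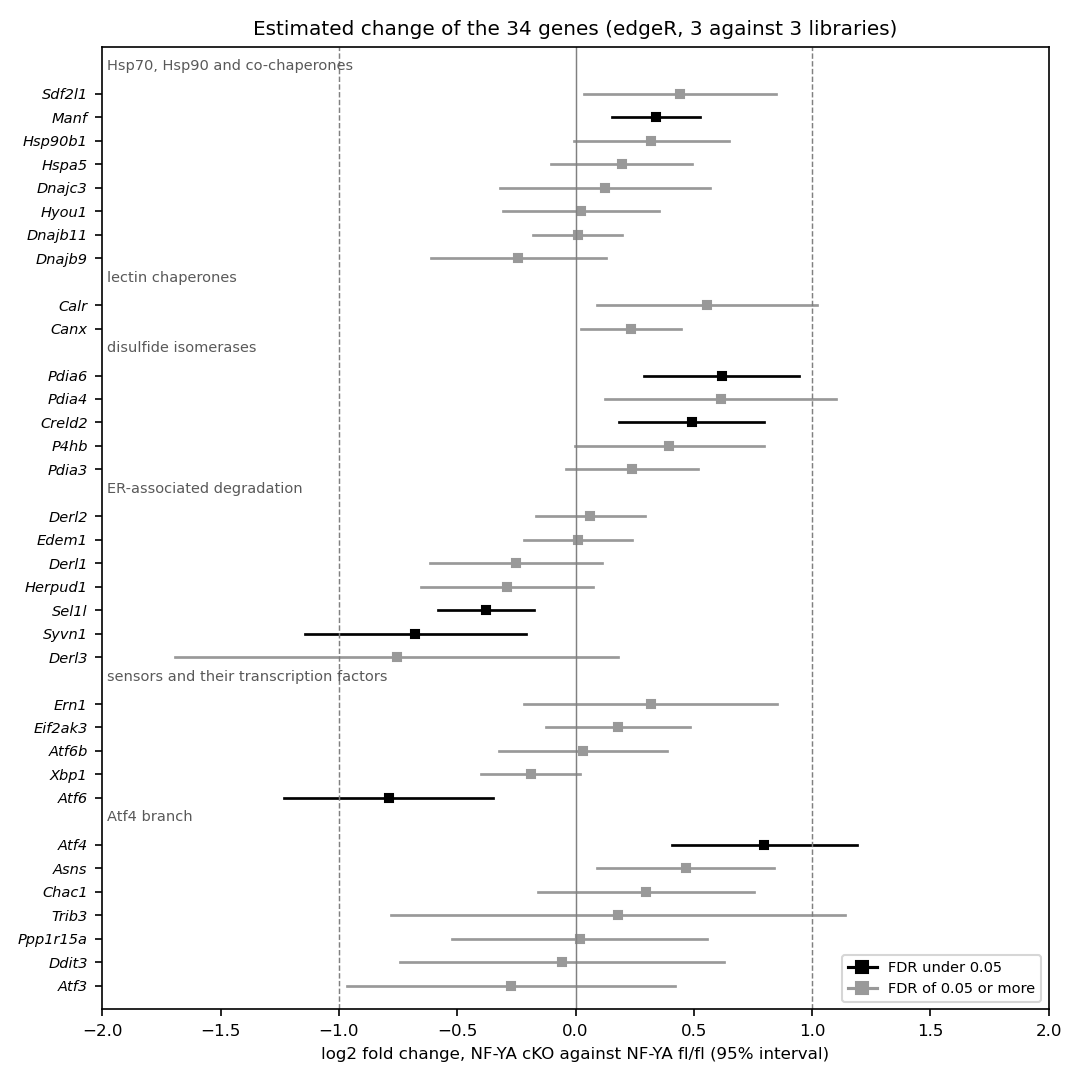
Log2 fold change of NF-YA cKO against NF-YA fl/fl (x axis, 0 is no change and the dashed lines mark a log2 fold change of 1 in either direction) for the 34 genes, grouped by role and ordered within each group. Squares are edgeR estimates and lines 95% intervals from 3 against 3 libraries, black for the 7 genes with an FDR under 0.05; the estimates lie between -0.79 and 0.80.

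The spread was unequal between the genotypes. The coefficient of variation over 3 libraries was larger in NF-YA fl/fl for all 34 genes, with a median of 20.3% against 3.86% in NF-YA cKO, and it was larger in NF-YA fl/fl for 82.1% of all tested genes. The genotypes did not overlap in 16 of the 34 genes (55.3% of all tested genes), with all NF-YA cKO libraries higher in 12 (29.1%) and lower in 4 (26.2%). NF-YA fl/fl replicate 2 was the lowest of the 6 libraries for 15 genes, and NF-YA fl/fl replicate 3 was the lowest for 10 and the highest for 13. These positions depend on the scale. On the TPM scale (transcripts-per-million, in which counts are divided by transcript length and every library adds up to the same total) 1 CPM corresponded to a median of 0.348 TPM in NF-YA fl/fl replicate 3 and 0.508 TPM in NF-YA fl/fl replicate 2. NF-YA fl/fl replicate 2 was then the highest library for 15 genes, and only Atf4 and Asns (5.88% of the 34 genes, against 18.8% of all tested genes) lay above all NF-YA fl/fl libraries, while 6 genes lay below (Dnajb9, Herpud1, Syvn1, Sel1l, Derl1 and Atf6; 17.6%, against 25.2%).

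The number of genes past an FDR of 0.05 rested on single libraries. Without NF-YA fl/fl replicate 2 it was 9 higher and 9 lower, or 52.9% of the group against 41.3% of all genes, so that the share of the group was then above that of all genes. Without replicate 3 it was 10 and 3 (38.2% against 49.8%), and without replicate 1 it was 2 and 3 (14.7% against 29.7%). Without any 1 of the NF-YA cKO libraries it was 1 and 1 (5.88%, against 21.7% to 24.9% of all genes). Atf4 was the higher gene each time, and the lower one was Sel1l without NF-YA cKO replicate 2 and Atf6 without replicate 1 or 3.

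**Figure D2:**
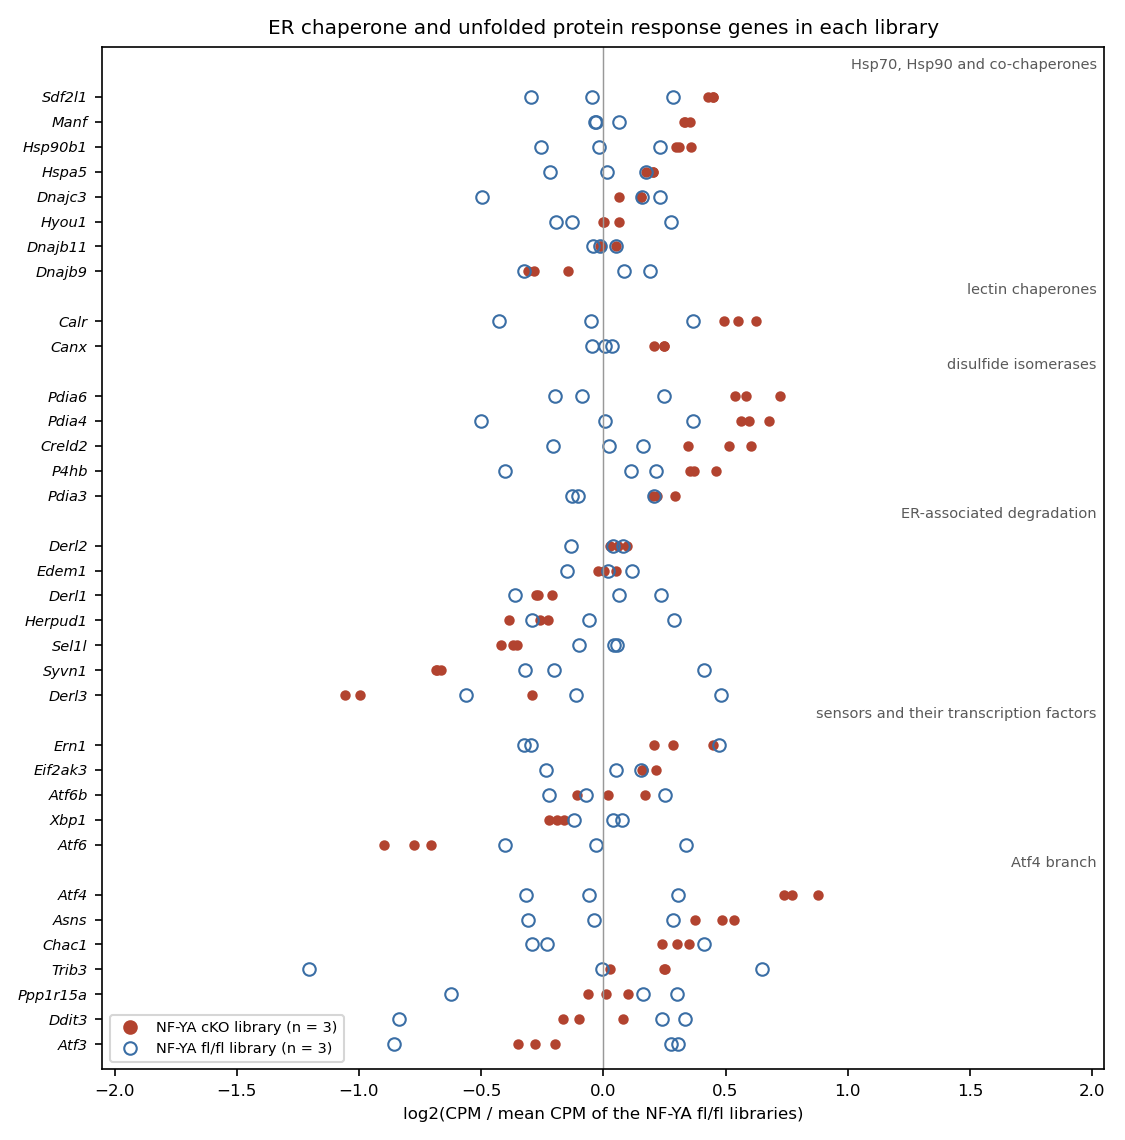
Level of each of the 34 genes in each library, as log2 of its CPM over the mean CPM of the NF-YA fl/fl libraries (x axis), with filled points for 3 NF-YA cKO libraries and open circles for 3 NF-YA fl/fl libraries, grouped by role. The filled points lie close together for most genes, while the open circles spread more widely for all 34; Atf4 and Pdia6 lie to the right of all open circles and Atf6, Syvn1 and Sel1l to the left.

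Per transcript length, Hspa5 was the most abundant of the 34 genes in both genotypes, at 524 ± 49.0 TPM in NF-YA cKO and 483 ± 72.2 TPM in NF-YA fl/fl (mean ± SD, n = 3). In NF-YA fl/fl it was followed by Hsp90b1 (329 ± 117 TPM), P4hb (327 ± 124 TPM), Atf4 (296 ± 9.87 TPM) and Calr (282 ± 130 TPM), whose ranges overlapped with that of the next gene. In NF-YA cKO Atf4 came second, at 496 ± 20.5 TPM, with a range that overlapped that of Hspa5 and lay above that of P4hb (394 ± 45.9 TPM). The lowest levels were those of Eif2ak3 (6.04 ± 0.42 and 5.78 ± 1.83 TPM) and Derl3 (0.46 ± 0.16 and 0.83 ± 0.48 TPM), with NF-YA cKO first. The 34 genes together took 0.355% to 0.420% of all TPM in NF-YA cKO and 0.271% to 0.396% in NF-YA fl/fl, ranges that overlap.

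The Hsp70 and Hsp90 chaperones of the ER and their partners showed small differences. Of 8 genes 1 changed at an FDR under 0.05 (38.6% of all tested genes), and 7 estimates were above 0 (49.0%). The median log2 fold change was 0.16. Hspa5 was at 1176, 1153 and 1176 CPM in the NF-YA cKO libraries, against 1153, 879 and 1031 CPM in the NF-YA fl/fl ones. The highest control library lay within the range of the NF-YA cKO libraries, and the log2 fold change was 0.19 ± 0.13 (SE; edgeR FDR = 0.257), with a 95% interval from -0.10 to 0.49.

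Hsp90b1, the ER member of the Hsp90 family (Grp94), was at 940, 910 and 901 CPM in the NF-YA cKO libraries, against 726, 861 and 615 CPM in the NF-YA fl/fl ones. All NF-YA cKO libraries were above the control libraries, but with the spread of the latter the log2 fold change of 0.32 ± 0.14 did not pass (edgeR FDR = 0.110). Manf, a small secreted ER protein that binds Hspa5, rose. It lies on chromosome 9 from 106888753 to 106891938 (GRCm38.p6), and was at 114, 112 and 112 CPM in the NF-YA cKO libraries, against 86.9, 93.0 and 87.2 CPM in the NF-YA fl/fl ones. The groups did not overlap, and the log2 fold change was 0.34 ± 0.08 (edgeR FDR = 0.0147). On log2(TPM + 1) the FDR of Manf was 0.33 (range over the alternatives 0.00139 to 0.331), and the call was lost on both TPM scales, with the replicate number as a block (FDR = 0.0578) and without any 1 of the NF-YA cKO libraries.

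The other 5 partners of Hspa5 did not pass the test. Sdf2l1, which binds the J-domain protein Dnajb11, had the highest estimate, 0.44 ± 0.17 (edgeR FDR = 0.0813), and Dnajb9, a J-domain protein, the lowest, -0.24 ± 0.16 (edgeR FDR = 0.257). The estimates of Dnajc3, Hyou1 and Dnajb11 lay between 0.01 and 0.12. Dnajb11 was the most tightly measured of them, at 98.7 ± 2.48 CPM in the NF-YA cKO libraries, against 98.0 ± 3.33 CPM in the NF-YA fl/fl ones, with a 95% interval of the log2 fold change from -0.18 to 0.20.

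Both lectin chaperones, which hold glycoproteins until they are folded, had estimates above 0 (49.0% of all tested genes), and neither passed an FDR of 0.05. In both, all NF-YA cKO libraries were above the control libraries (29.1% of all tested genes). The soluble Calr was at 597, 620 and 653 CPM in the NF-YA cKO libraries, against 410, 547 and 315 CPM in the NF-YA fl/fl ones, with a log2 fold change of 0.56 ± 0.20 (edgeR FDR = 0.0612). The membrane protein Canx was at 819 ± 13.8 and 696 ± 19.8 CPM, or a log2 difference of 0.23 ± 0.09 (edgeR FDR = 0.0775).

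The disulfide isomerases had the highest median of the role groups, 0.49. All 5 estimates were above 0 (49.0% of all tested genes). In 4 genes all NF-YA cKO libraries were above the control libraries (29.1%), and 2 genes rose at an FDR under 0.05 (19.7%). Pdia6, an isomerase that also binds Hspa5 and Ern1 (chromosome 12, 17266589 to 17284785), was at 416, 403 and 458 CPM in the NF-YA cKO libraries, against 261, 330 and 242 CPM in the NF-YA fl/fl ones. Each NF-YA cKO library was above each control library, and the log2 fold change was 0.62 ± 0.14 (1.53-fold, edgeR FDR = 0.0130).

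Creld2, an ER protein with EGF repeats that is known as a gene induced by ER stress (chromosome 15, 88819646 to 88826681), was at 42.5, 37.8 and 45.2 CPM in the NF-YA cKO libraries, against 30.2, 33.3 and 25.8 CPM in the NF-YA fl/fl ones. The groups were again separate, with a log2 fold change of 0.49 ± 0.13 (edgeR FDR = 0.0234). Pdia4, Pdia3 and P4hb, the last of which is protein disulfide isomerase itself and the beta subunit of the collagen prolyl 4-hydroxylases, had estimates of 0.61, 0.24 and 0.40 with FDRs from 0.0527 to 0.151. NF-YA fl/fl replicate 3 was the lowest library for Pdia4, Pdia6, P4hb and Creld2. On the TPM scale NF-YA fl/fl replicate 2 overlapped the NF-YA cKO libraries, with 230 TPM for Pdia6 against 242, 199 and 256 TPM, and neither Pdia6 nor Creld2 passed there (limma on log2(TPM + 1), FDR = 0.161 and 0.263; ranges over the alternatives 0.00118 to 0.161 and 0.00915 to 0.263). Without any 1 of the NF-YA cKO libraries, or without NF-YA fl/fl replicate 1, the FDRs of both genes were over 0.05, and that of Creld2 also with the replicate number as a block (0.0637).

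The genes of ER-associated degradation leaned the other way, with a median of -0.29. Of 7 estimates 5 were below 0 (8850 of all 17348 tested genes), and 2 genes fell at an FDR under 0.05 (18.9%). Syvn1 (Hrd1), the ubiquitin ligase of the retrotranslocation complex (chromosome 19, 6046576 to 6053718), was at 19.2, 19.3 and 19.5 CPM in the NF-YA cKO libraries, against 24.7, 26.8 and 41.0 CPM in the NF-YA fl/fl ones. Its log2 fold change was -0.68 ± 0.20 (edgeR FDR = 0.0337), and the highest library was NF-YA fl/fl replicate 3. Sel1l, the cofactor that holds Syvn1 in this complex (chromosome 12, 91806043 to 91849157), was at 138, 140 and 133 CPM in the NF-YA cKO libraries, against 185, 166 and 183 CPM in the NF-YA fl/fl ones. The groups did not overlap, and the log2 fold change was -0.38 ± 0.09 (edgeR FDR = 0.0137). Syvn1 lost its call without any 1 of the NF-YA cKO libraries (FDRs of 0.0854, 0.0885 and 0.0821; range over the alternatives 0.00689 to 0.0885). Sel1l lost it on both TPM scales, with the replicate number as a block (FDR = 0.0525) and without NF-YA cKO replicate 1 or 3 (FDRs of 0.0545 and 0.0568; range 0.000326 to 0.0633).

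Herpud1, an adaptor of the same complex, and Derl1, Derl2 and Derl3, membrane proteins of its channel, did not pass. Their estimates were -0.29, -0.25, 0.06 and -0.76, with FDRs from 0.171 to 0.636. Derl3 had only 14 to 33 counts in a library, and its 95% interval ran from -1.69 to 0.18. Edem1, which directs misfolded glycoproteins to degradation, was at 98.1 ± 2.62 CPM in the NF-YA cKO libraries, against 97.3 ± 8.87 CPM in the NF-YA fl/fl ones.

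Among the sensors and their transcription factors only Atf6 changed at an FDR under 0.05 (38.6% of all tested genes did). Atf6, a membrane-bound factor that is cut free in the Golgi and then enters the nucleus (chromosome 1, 170704457 to 170868585), was at 146, 134 and 153 CPM in the NF-YA cKO libraries, against 244, 189 and 316 CPM in the NF-YA fl/fl ones. Every NF-YA cKO library was below every control library, and the log2 fold change was -0.79 ± 0.19 (1.73-fold lower, edgeR FDR = 0.0157). Per transcript length the 3 control libraries were closer to each other, at 37.5, 35.5 and 40.5 TPM against 22.8, 17.8 and 23.2 TPM. Atf6 missed an FDR of 0.05 in 1 of 14 alternatives, without NF-YA cKO replicate 2 (FDR = 0.0584; range over the alternatives 0.000582 to 0.0584).

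Its relative Atf6b was at 31.0 ± 2.97 and 30.3 ± 5.25 CPM, with an estimate of 0.03 ± 0.15. Ern1, the kinase and endoribonuclease that splices Xbp1, was at 50.2, 42.5 and 44.9 CPM in the NF-YA cKO libraries, against 29.9, 29.4 and 51.0 CPM in the NF-YA fl/fl ones. NF-YA fl/fl replicate 3 lay above the NF-YA cKO libraries while the other two control libraries lay below (log2 fold change 0.32 ± 0.22, edgeR FDR = 0.300). Eif2ak3, the kinase that phosphorylates the translation factor eIF2 alpha, was at 23.1, 24.0 and 23.1 CPM and at 21.4, 23.0 and 17.5 CPM (log2 fold change 0.18 ± 0.13, edgeR FDR = 0.301).

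Xbp1 encodes the transcription factor made after Ern1 cuts its mRNA. The gene as a whole was at 114, 112 and 109 CPM in the NF-YA cKO libraries, against 134, 117 and 131 CPM in the NF-YA fl/fl ones. All NF-YA cKO libraries were lower, and the log2 fold change of -0.19 ± 0.09 did not pass the test (edgeR FDR = 0.132). The transcript tables list an unspliced and a spliced form, which differ in length by the 26 bases that Ern1 removes. The site is shown because the share of the forms rests on reads across it. It lies in exon 4 of 5, within the coding sequence (GRCm38, GENCODE vM21, plus strand, chr11:5524252-5524337), and its removal lengthens the open reading frame from 267 to 371 codons. The removed bases (5524282 to 5524307) are in capitals:
Xbp1: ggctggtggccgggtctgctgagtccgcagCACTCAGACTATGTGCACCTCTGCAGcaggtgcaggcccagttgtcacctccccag

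The spliced form made up 37.6%, 42.2% and 31.6% of the Xbp1 TPM in the NF-YA cKO libraries and 20.7%, 8.76% and 13.4% in the NF-YA fl/fl libraries. The lowest NF-YA cKO value was above the highest control value. The means were 37.1% ± 5.31 and 14.3% ± 6.01 (SD, n = 3), a difference of 22.8 percentage points, with an exact two-sided permutation p of 0.1, which is the smallest that 3 against 3 libraries allow. The spliced form itself was at 21.3 ± 2.69 TPM in NF-YA cKO and 9.87 ± 4.46 TPM in NF-YA fl/fl, while the unspliced form was at 36.3 ± 5.28 and 59.5 ± 9.91 TPM. With 1 library left out the difference in share stayed between 20.1 and 26.0 percentage points. Such separations were not rare in these tables. Of 30277 transcripts with a mean share between 5% and 95%, 20.4% did not overlap between the genotypes, and 10.4% were at least as far apart as those of Xbp1. The deposited split is an estimate from RSEM, and reads that miss the 26 bases cannot tell the forms apart.

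**Figure D3:**
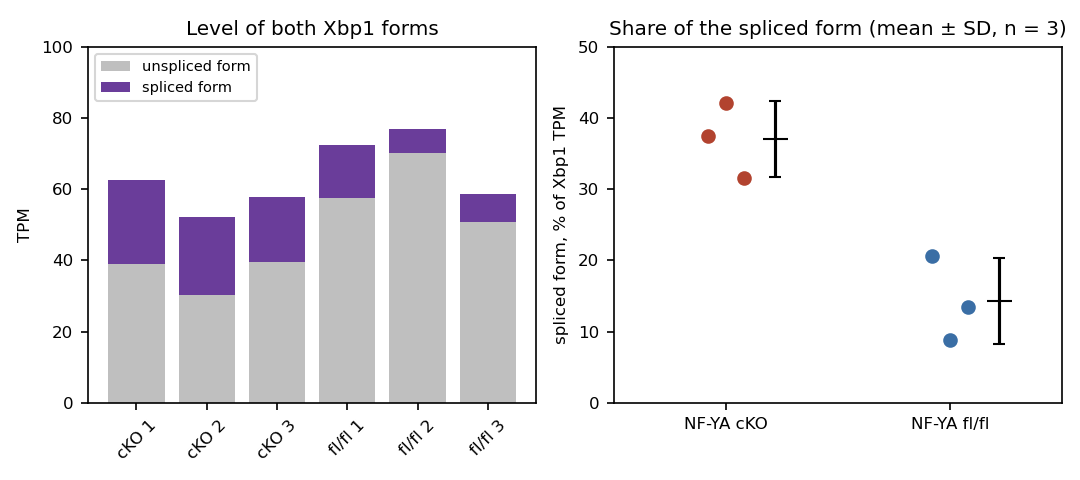
Left, TPM of the unspliced (grey) and spliced (purple) Xbp1 forms stacked for each of the 6 libraries; right, the spliced form as % of Xbp1 TPM, with points for libraries and bars for mean ± SD (n = 3 per genotype). The NF-YA cKO points lie between 31.6% and 42.2% and the NF-YA fl/fl points between 8.76% and 20.7%, while the total height of the columns overlaps between the genotypes.

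Among the 32 transcripts of 14 of the 34 genes with a mean share between 5% and 95%, 5 did not overlap between the genotypes. They belong to 3 genes, Xbp1, Derl2 and Hyou1. Over all tested genes this held for 6188 of 30277 such transcripts (20.4%). Minor forms of Dnajb11 (0.13% and 1.10%, NF-YA cKO first) and Asns (0.87% and 1.74%) were separate too. The main form of Derl2 made up 76.3%, 76.6% and 71.2% of its TPM in NF-YA cKO and 89.9%, 82.3% and 96.0% in NF-YA fl/fl. A second form of Hyou1, the nucleotide exchange factor of Hspa5, was at 21.5%, 15.4% and 16.6% against 30.0%, 28.0% and 24.7%. The levels of both genes were close, with log2 fold changes of 0.06 ± 0.10 and 0.02 ± 0.14.

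In the Atf4 branch the transcription factor itself rose, and none of the other 6 genes passed an FDR of 0.05 by edgeR. Atf4 is translated when eIF2 alpha is phosphorylated, by Eif2ak3 or by kinases that sense other stresses. It lies on chromosome 15 from 80255184 to 80257545, and was at 613, 661 and 600 CPM in the NF-YA cKO libraries, against 345, 289 and 444 CPM in the NF-YA fl/fl ones. The lowest NF-YA cKO library was well above the highest control library, and the log2 fold change was 0.80 ± 0.16 (1.74-fold, edgeR FDR = 0.0096). This passes an FDR of 0.01 but not the minimum log2 fold change of 1 for a call. On the TPM scale the separation was cleaner, with 519, 479 and 490 TPM against 286, 295 and 306 TPM. Atf4 passed an FDR of 0.05 in all 14 alternatives, with log2 fold changes from 0.65 to 0.97.

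Asns, the asparagine synthetase gene, came closest among the other 6 genes. It was at 409, 424 and 379 CPM in the NF-YA cKO libraries, against 284, 236 and 356 CPM in the NF-YA fl/fl ones. All NF-YA cKO libraries were higher, and the log2 fold change of 0.47 ± 0.16 had an FDR of 0.0540 by edgeR. On log2(TPM + 1) Asns passed an FDR of 0.05, as it did in 6 of the 14 alternatives (FDRs from 0.00331 to 0.182). Ddit3 (CHOP), the factor linked to cell death under lasting ER stress, was at 33.0, 31.5 and 37.4 CPM in the NF-YA cKO libraries, against 41.8, 19.8 and 44.6 CPM in the NF-YA fl/fl ones. The control libraries lay on both sides of the NF-YA cKO libraries, with a log2 fold change of -0.06 ± 0.29 (edgeR FDR = 0.891) and a 95% interval from -0.74 to 0.63.

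The same pattern held for Trib3, a pseudokinase, Ppp1r15a (GADD34), which directs the phosphatase of eIF2 alpha, and the transcription factor Atf3. Trib3 was at 94.1, 94.3 and 80.8 CPM against 78.9, 34.4 and 124 CPM, and the 95% interval of its log2 fold change ran from -0.78 to 1.14. Ppp1r15a and Atf3 had estimates of 0.02 ± 0.23 and -0.27 ± 0.29, and Chac1, which degrades glutathione, had 0.30 ± 0.19 (edgeR FDR from 0.260 to 0.959 for the 3 genes). On the CPM scale NF-YA fl/fl replicate 2 was the lowest of the 6 libraries for all 7 genes of the branch and replicate 3 the highest for 5, so that the control libraries differed from each other more than the genotypes did for Ddit3, Trib3, Ppp1r15a and Atf3. Without NF-YA fl/fl replicate 2 Ddit3 and Atf3 passed as lower, with log2 fold changes of -0.35 and -0.57.

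**Figure D4:**
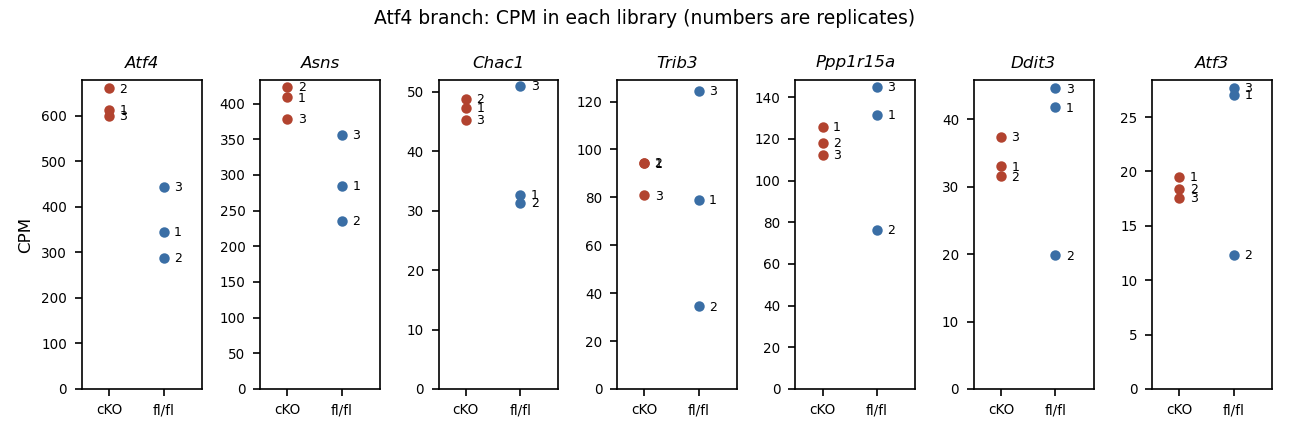
CPM of the 7 genes of the Atf4 branch (one panel each, y axes from 0) in the NF-YA cKO (left) and NF-YA fl/fl (right) libraries, with the replicate number beside each point. Atf4 and Asns are separate between the genotypes, while for Ddit3, Trib3, Ppp1r15a and Atf3 NF-YA fl/fl replicate 2 lies below and replicate 3 above all NF-YA cKO points.

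The changes were set beside the ER stress response element. The 9 genes of the group that have it had a median log2 fold change of 0.23, with Pdia6 and Creld2 higher and Syvn1 lower at an FDR under 0.05. The 21 genes without it had a median of 0.06, with Atf4 higher and Sel1l lower. For 4 genes (Manf, Hyou1, Derl1 and Atf6) no promoter was searched. Over all tested genes of the promoter table the share at an FDR under 0.05 was 20.8% higher and 18.1% lower with a CCAAT box and 20.2% higher and 18.2% lower without one. By the study's thresholds 260 were called higher and 357 lower of 5274 genes with a box. Of 7192 genes without one 299 were called higher and 546 lower, and this difference was not tested. The study, with another window and method, reported NF-Y sites as enriched for its upregulated genes and not for its downregulated genes.

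The genes around the group were examined in 7 lists with 150 tested genes in all. Of these 51 were higher and 12 lower at an FDR under 0.05 (19.7% and 18.9% of all tested genes), with a median log2 fold change of 0.21. By the study's thresholds 4 were called higher and 3 lower (4.65% and 7.67% of all tested genes). Of 35 other targets of Atf4, among them amino acid transporters, serine synthesis enzymes and tRNA synthetases, 13 were higher and 1 lower, with a median of 0.27. The called genes were Slc7a11, the cystine transporter, at 233 ± 16.9 CPM in the NF-YA cKO libraries, against 59.1 ± 7.84 CPM in the NF-YA fl/fl ones (log2 fold change 1.98 ± 0.13, edgeR FDR = 0.000161), and the hormone gene Fgf21, at 1.46 ± 0.531 and 26.8 ± 8.20 CPM (log2 fold change -4.18 ± 0.34, edgeR FDR = 0.00039).

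Of 21 other ER oxidoreductases and folding enzymes 9 passed an FDR of 0.05 by edgeR, each of them higher, with a median of 0.28. Of all tested genes 19.7% were higher and 18.9% lower. Fkbp11, a prolyl isomerase of the ER, was called, at 18.3 ± 1.13 against 8.20 ± 1.67 CPM (log2 fold change 1.16 ± 0.18, edgeR FDR = 0.00334). Of 23 genes of the translocon and of signal peptide processing, through which proteins enter the ER, 12 were higher and 2 lower (Sec61a2 and Sec62), with a median of 0.35. Sec11c, a subunit of the signal peptidase, was called, at 25.3 ± 2.95 against 11.3 ± 0.832 CPM (log2 fold change 1.16 ± 0.13, edgeR FDR = 0.00125).

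The 18 other genes of ER-associated degradation were split, with 3 higher (Sep15, Ube2j1 and Ube2j2), 3 lower (Edem3, Erlec1 and Ube2g2) and a median of 0.01. Such counts are near the shares of all tested genes, 19.7% higher and 18.9% lower. Among 19 regulators of the unfolded protein response 4 were higher (Map3k5, Eif2s1, Traf2 and Ppp1r15b) and 3 lower (Wfs1, Creb3 and Nfe2l1), again near those shares. Wfs1, an ER membrane protein mutated in Wolfram syndrome, was called lower, at 41.5 ± 2.08 against 170 ± 68.2 CPM (log2 fold change -2.03 ± 0.30, edgeR FDR = 0.00303). Of 16 genes linked to collagen folding, not all of them enzymes, 1 was higher (Serpinh1) and 1 lower, the ER channel gene Tmem38b. Tmem38b was called, at 10.3 ± 0.780 against 43.2 ± 14.1 CPM (log2 fold change -2.07 ± 0.24, edgeR FDR = 0.00135). The genes listed here with counts of 5 or fewer were named after their values were seen, except the called ones.

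Heat shock genes outside the ER served as a comparison. Of 18 such genes of the cytosol and mitochondria 9 were higher and 2 lower (Dnajb4 and Hsf2), against 19.7% and 18.9% of all tested genes. Their median was 0.27. Hspd1, the mitochondrial Hsp60, was called at 958 ± 46.7 against 450 ± 24.2 CPM (log2 fold change 1.09 ± 0.10, edgeR FDR = 0.000546). The terminal muscle and macrophage markers and the sex-linked genes moved with genotype beside all these lists, and their part was not tested.

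**Figure D5:**
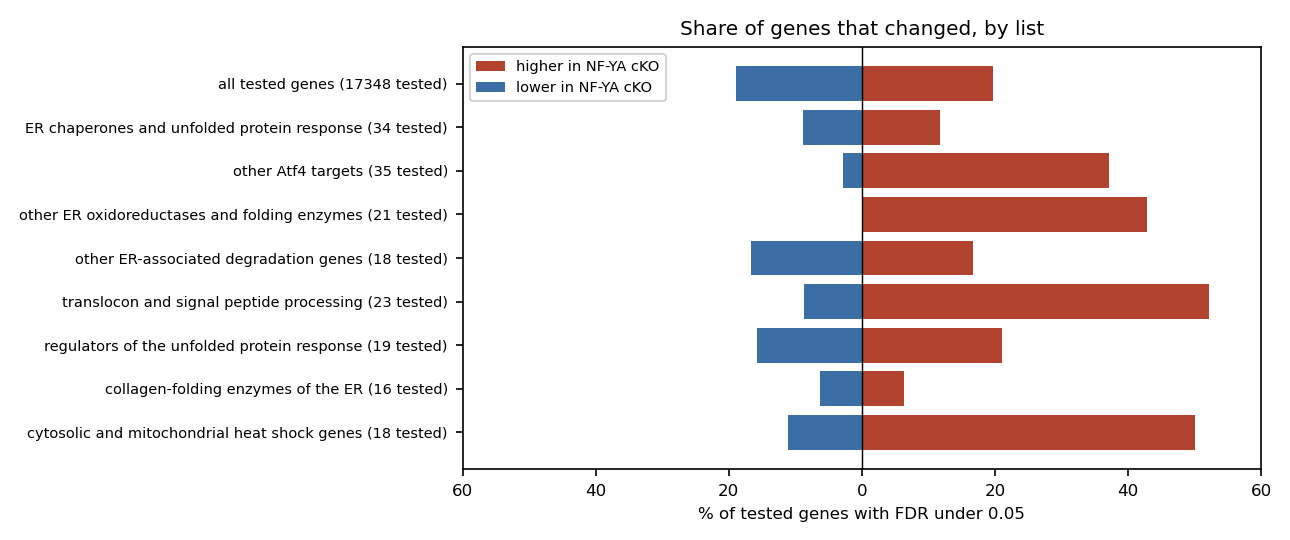
Share of the tested genes of each list (rows, with the number tested) that were higher (red, to the right) or lower (blue, to the left) in NF-YA cKO at an FDR under 0.05 (x axis, %). The 34 genes of the group show 4 higher and 3 lower, under the 19.7% and 18.9% of all tested genes in the top row, while the translocon and the heat shock lists show 12 of 23 and 9 of 18 higher. The row named for collagen-folding enzymes also holds genes that are not enzymes.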

How the data were processed

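RNA was sequenced from cultured SCs in 3 libraries of each genotype, NF-YA cKO or NF-YA fl/fl, with genotype and replicate number from the labels. Whether each library came from a separate mouse is not given in the sources used here, so p-values measure the spread between these libraries, which may be technical. The authors mapped stranded paired reads with bowtie2 against mm10 transcripts, and RSEM divided reads that several transcripts or near-identical genes share, so that the deposited expected counts, which are not normalized, need not be whole. The deposited TPM values were divided by effective length by the authors' software and sum to a fixed total, which removes depth.

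Expected counts were rounded. The filter of the study's methods (over 10 counts, 2 libraries or more) left 17348 genes, which were compared by genotype alone with the quasi-likelihood test of edgeR 4.0.16 (TMM) in R 4.3.3. FDR is the Benjamini-Hochberg adjusted p over all of them. The thresholds of a call are also the study's, and DESeq2 1.42.0, its tool, was run as an alternative. SEs were derived from the F statistic, and intervals are 95%. The fit was first tested on simulated counts. Gene positions and promoters are from RefSeq (GRCm38.p6). Totals of 26936230 to 41118984 counts make 3 counts 0.0730 to 0.111 CPM.

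The 34 genes, the other lists and the tests were chosen with earlier results of these data known. Values in every library are given for genes with an FDR under 0.05 and for Hspa5, Hsp90b1, Xbp1, Atf4, Ddit3, Ern1, Eif2ak3 and Atf6, and from each other list the called genes with the largest change, up to 3. Calr, Asns, Trib3 and other genes of the group given with more than a range were added after their values were seen. Alternatives were 14 other fits, with limma 3.58.1 on log2(TPM + 1) and log2(TPM + 0.1), and a looser threshold. Plots were drawn with matplotlib 3.10.9.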

Additional observations from a re-analysis of the deposited data

How the results depend on the processing

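No gene of the group was called in any of the 14 other fits, against 4 higher and 3 lower with an FDR under 0.05 and no minimum fold. At that FDR the higher genes numbered 8 with DESeq2 (with the lower ones 32.4% of the group, against 42.2% of all genes), 7 without a filter (29.4% against 24.3%) and 2 with limma on log2(TPM + 1) or log2(TPM + 0.1) (11.8% against 22.1% and 23.6%), and from 1 to 10 with 1 library left out, and the lower ones from 1 to 9. Over all genes the calls were 231 higher and 704 lower on log2(TPM + 1), 361 higher on log2(TPM + 0.1), 3418 and 3285 without a minimum fold, and 177 to 890 higher and 523 to 1684 lower with 1 library left out. Without a minimum fold the lists had 13 other Atf4 targets higher, 9 oxidoreductases higher, and 3 degradation genes higher and 3 lower. There were also 12 translocon genes higher and 2 lower, and 4 regulators higher and 3 lower. Of the genes linked to collagen folding 1 was higher, and of the heat shock genes 9 were higher and 2 lower. ER stress response element II was found in 1 gene upstream of the start. In the higher share of calls, 37.7%, only limma on TPM (24.7% and 25.3%) and leaving out a library moved by over 10 percentage points.

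Libraries with the same replicate number share only the number: the correlation of their deviations from the genotype means was 0.17, -0.07 and 0.05 for replicates 1, 2 and 3. With the replicate number as a block 2 genes of the group were higher (Atf4 and Pdia6) and 2 lower (Atf6 and Syvn1) at an FDR under 0.05 (11.8% against 30.8% of all genes), and the calls over all genes were 625 higher and 947 lower.

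The sign changed for 9 genes, with main estimates from -0.06 for Ddit3 to 0.18 for Trib3, and the cause was not tested. For Trib3, Dnajc3 and Derl2 it changed in 1 fit each. In the order DESeq2, edgeR with DESeq2 size factors, filterByExpr, log2(TPM + 1) and log2(TPM + 0.1), the log2 fold change of Dnajb11 was -0.011, -0.011, -0.027, -0.067 and -0.068, that of Edem1 -0.010, -0.010, -0.027, -0.063 and -0.064, and that of Ppp1r15a -0.0033, -0.0032, -0.018, -0.012 and -0.012. With the last 3 of these Hyou1 was at -0.013, -0.038 and -0.038 and Atf6b at -0.0045, -0.037 and -0.040. Ddit3 was at 0.0060 with library size only, 0.010 and 0.012 on the TPM scales and 0.022 with the replicate block. With 1 library left out the log2 fold change ranged from -0.076 to 0.18 for Hyou1, -0.049 to 0.028 for Dnajb11, -0.076 to 0.25 for Dnajc3, -0.062 to 0.066 for Edem1, -0.0076 to 0.099 for Derl2, -0.078 to 0.17 for Atf6b, -0.35 to 0.14 for Ddit3, -0.19 to 0.66 for Trib3 and -0.23 to 0.19 for Ppp1r15a. For the 34 genes and 14 fits 371 values kept direction and side of the FDR of 0.05, 28 passed it only there, 28 missed it only there and 49 changed sign.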

Other observations

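Outside the group 13 tested genes have the ER stress response element. Of these, 0 were higher and 4 lower at an FDR under 0.05 by edgeR (19.7% and 18.9% of all tested genes), with a median log2 fold change of -0.07. The counts were the same with DESeq2, and at an unadjusted p under 0.05 by edgeR they were 2 and 5. The 3 called genes, named after their values were seen, were all lower. Calr4, a relative of Calr, was at 0.177 ± 0.052 CPM in the NF-YA cKO libraries, against 1.73 ± 0.974 CPM in the NF-YA fl/fl ones (log2 fold change -3.28 ± 0.60, edgeR FDR = 0.00611). Spats2l was at 12.5 ± 1.83 and 50.9 ± 30.7 CPM (log2 fold change -2.02 ± 0.40, edgeR FDR = 0.00849), and Acacb, an acetyl-CoA carboxylase, at 1.78 ± 0.197 and 5.04 ± 0.556 CPM (log2 fold change -1.50 ± 0.20, edgeR FDR = 0.00187). Terminal muscle markers were lower in the same libraries, and their part was not tested.

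The gene levels of the Atf4 branch summed to 1003, 893 and 928 TPM in NF-YA cKO and to 685, 618 and 719 TPM in NF-YA fl/fl, so that on this scale the genotypes did not overlap, with Atf4 itself as the largest term. The sums of the ER-associated degradation genes (153 to 178 against 201 to 220 TPM) and of the sensors and their transcription factors (97.7 to 121 against 130 to 146 TPM) were separate in the other direction, lower in NF-YA cKO, and those of the other 3 role groups overlapped. The sums rest on some of their genes. On this scale only Atf4 and Asns were separate in the Atf4 branch, and Herpud1, Syvn1, Sel1l and Derl1 among the degradation genes. Of all tested genes 18.8% were separate and higher in NF-YA cKO, and 25.2% were separate and lower. How often sums of other genes are separate was not tested. Among the sensors Atf6 was separate (17.8 to 23.2 against 35.5 to 40.5 TPM), while Xbp1, Ern1, Atf6b and Eif2ak3 overlapped.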
